A study of Saccharomyces cerevisiae with 134 samples.

Results

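The 300 genes described here had the highest H3K36me3 signal in budding yeast cells kept in the dark. There the light-switchable methyltransferase LANS-Set2 should be outside the nucleus. The genes were selected on measured values. Among the 3943 genes with a length of 600 to 3499 bases that appear in every H3K36me3 table, they have the highest mean signal over the 3 dark libraries taken at 0 min, before light was switched on. They are 7.61% of those genes. The other 3643 genes of that length serve for comparison, and 2 of them have no dark value. Signals in the 0 min dark libraries are therefore given as a description, with no test. How much of these signals is background was not tested.

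The genes were followed in 5 sets of libraries, all of strain BY4741. In the dark-to-light course, set2Δ cells carrying LANS-Set2 were sampled 0, 20, 40 and 60 min after blue light came on. In the light-to-dark course, set2Δ cells carrying LANS-Set2 were sampled 0, 30, 60 and 90 min after it went off. A second light-to-dark course used cells labelled set2Δ rph1Δ, carrying LANS-Set2, in which the demethylase gene RPH1 is deleted too. Their growth protocol names the cells only as rph1Δ with LANS-Set2, so whether native SET2 was absent there rests on the genotype label. RNA was measured in both set2Δ courses, and in rph1Δ and wild-type (WT) cells that carry no LANS-Set2. LANS-Set2 cells grew in synthetic medium without leucine, whereas rph1Δ and WT cells grew in YPD, all at 30 °C. By these labels LANS-Set2 was the only Set2 in all 3 courses. Each time point had 3 H3K36me3 libraries and, in the set2Δ courses, 3 RNA libraries, except 2 RNA libraries at 60 min of light. Nothing in the labels says that replicates were separate cultures, so p-values measure the spread between these libraries, which may be technical.

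Set2 travels with elongating RNA polymerase II and methylates lysine 36 of histone H3 over the body of transcribed genes. The trimethylated form, H3K36me3, recruits the Rpd3S deacetylase, which keeps the chromatin of gene bodies closed to internal initiation. Rph1 is a JmjC demethylase that can remove the mark, and histone exchange and replication dilute it.

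Ribosomal protein and translation factor genes had the highest shares of selected genes among 32 lists of genes by function. Letters known as the RRPE and PAC elements, which the selection did not use, were each found upstream of a minority of the 300 genes. Windows of 6 genes, 4 with matches and 2 without, are shown. The window runs from 300 to 101 bases before the start codon, on the coding strand, in the R64 (sacCer3) genome from RefSeq. Capitals mark AAAATTT (RRPE) and GATGAG (PAC) on either strand; AAAATTTT holds an RRPE match on each strand. Both elements are known from promoters of ribosome biogenesis genes. They were picked for display after the shares of 12 motifs had been seen. YEF3 is a translation factor gene and CBF5, NOP1 and UTP9 are ribosome biogenesis genes, all with matches. SSC1, a chaperone gene, and RPL8A, a ribosomal protein gene, are shown as highly marked genes with no match to either.
YEF3 promoter, chrXII:636480-636679, plus strand: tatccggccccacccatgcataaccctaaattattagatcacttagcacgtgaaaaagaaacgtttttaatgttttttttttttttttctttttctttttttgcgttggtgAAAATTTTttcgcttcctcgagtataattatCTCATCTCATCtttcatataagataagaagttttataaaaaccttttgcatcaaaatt
CBF5 promoter, chrXII:505834-506033, plus strand: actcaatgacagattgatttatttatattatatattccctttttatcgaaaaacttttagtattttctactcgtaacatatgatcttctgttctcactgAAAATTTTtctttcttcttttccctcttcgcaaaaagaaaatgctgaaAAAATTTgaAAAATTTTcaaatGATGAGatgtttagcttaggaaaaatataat
NOP1 promoter, chrIV:427064-427263, plus strand: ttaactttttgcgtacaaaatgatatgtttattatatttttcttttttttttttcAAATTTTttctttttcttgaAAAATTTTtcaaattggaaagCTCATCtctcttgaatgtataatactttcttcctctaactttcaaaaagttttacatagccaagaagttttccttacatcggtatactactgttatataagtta
UTP9 promoter, chrVIII:491631-491830, plus strand: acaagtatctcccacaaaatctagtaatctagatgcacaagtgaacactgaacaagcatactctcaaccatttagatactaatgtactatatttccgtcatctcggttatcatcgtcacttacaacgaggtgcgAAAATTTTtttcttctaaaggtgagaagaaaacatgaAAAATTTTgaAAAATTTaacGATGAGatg
SSC1 promoter, chrX:521703-521902, minus strand: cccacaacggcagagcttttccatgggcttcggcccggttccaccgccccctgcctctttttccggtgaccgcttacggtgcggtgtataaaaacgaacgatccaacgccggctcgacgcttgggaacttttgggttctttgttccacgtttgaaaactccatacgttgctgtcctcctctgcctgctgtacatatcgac
RPL8A promoter, chrVIII:36126-36325, minus strand: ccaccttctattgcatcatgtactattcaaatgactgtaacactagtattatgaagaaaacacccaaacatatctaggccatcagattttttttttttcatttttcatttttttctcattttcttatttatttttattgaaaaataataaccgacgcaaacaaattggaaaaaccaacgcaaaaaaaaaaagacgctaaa

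RRPE matched 113 of the 300 selected windows (37.7%), against 18.7% of the other genes and 20.1% of all windows of that length. PAC matched 18.3% of selected windows, against 12.9% of others and 13.3% of all. The matches gathered in some functional groups. All 16 selected ribosome biogenesis genes held RRPE, and so did 48 of the 55 in that list that were not selected. Among translation factor genes, 22 of 25 selected and 7 of 14 others held it. Among ribosomal protein genes it was in 5 of 20 selected and 3 of 7 others. Outside the ribosome biogenesis list, RRPE was in 97 of 284 selected windows (34.2%). Of the remaining 10 motifs, a run of 8 A (AAAAAAAA) was in 34.7% of selected windows, against 27.7% of others and 28.2% of all. The Rsc3 core CGCGC was in 5.33% of selected windows, against 10.2% of others and 9.82% of all. The Rap1 core CCATACA was in 1.0% of selected windows, against 2.28% of others and 2.18% of all. These are letter matches in a fixed window and not measured binding sites.

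In the dark libraries the selected genes spanned signals of 0.0742 to 0.260, with a median of 0.0987. The other genes had a median of 0.0225 and reached 0.0741. The unit of the deposited signal is not stated, and each course is a separate table, so levels are compared only within a course. The limit of the selection falls in a continuous range. Just inside it were RTG3 at 0.0747, NOP14 at 0.0744, RRP3 at 0.0743, and PSR1 and UTP9 at 0.0742. Just outside were SOF1 at 0.0741, RPB5 at 0.0739, and BTN2 and UBP3 at 0.0738.

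The dark libraries ranked genes alike. Spearman's rho between pairs of them, across 3941 genes that are not independent, was 0.965 to 0.979. Each library alone placed 289 or 290 of the selected genes among its own highest 300. The selection used the mean of these same libraries, so that overlap is partly built in. The median coefficient of variation over the 3 libraries was 13.3%, and the largest was 26.1%, at ERG3.

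The highest signal belonged to PMA1, the plasma membrane proton pump, at 0.239, 0.242 and 0.299 in the 3 dark libraries (chromosome VII, 479910 to 482666). GCN4, the transcription activator of amino acid biosynthesis, followed with 0.234, 0.227 and 0.292. The ribosomal protein gene RPL8A had 0.209, 0.231 and 0.264. These 3 genes overlapped each other, and all their libraries lay well above the median of the selected genes. YEF3, a fungal elongation factor, had 0.240, 0.197 and 0.255, and SSC1, a mitochondrial Hsp70, had 0.179, 0.190 and 0.225. The next 10 ran from RPS1A at a mean of 0.195 to RPS1B at 0.176. They include RPS0B, RPS8B, RPL7A and RPL2B, the dihydroorotate dehydrogenase gene URA1, the Hsp90 gene HSC82, the endoplasmic reticulum Hsp70 gene KAR2 and the elongation factor gene TEF2. RPL8A, RPS8B, RPL7A, TEF2 and RPL2B, and 17 of the 300 selected genes in all, have a near-identical copy (at least 95% identity), between which reads can be split. Their values are uncertain for that reason.

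Among protein synthesis genes, of 27 cytosolic ribosomal protein genes in the length range, 20 were selected (74.1%), and of 39 translation factor genes 25 were (64.1%). Aminoacyl-tRNA synthetases, which charge tRNAs, gave 9 of 18 (50.0%), with CDC60 at 0.133 and KRS1 at 0.129 highest. Ribosome biogenesis genes gave 16 of 71 (22.5%), led by the fibrillarin gene NOP1 at 0.160 and the pseudouridine synthase gene CBF5 at 0.137. All these shares lie above the 7.61% of all genes in the range. They are descriptions of the selection, and no test of enrichment was made.

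Protein folding and turnover were also well represented. Chaperone genes gave 18 of 35 (51.4%), including SSC1, HSC82 and KAR2, the Hsp40 gene YDJ1 at 0.164 and 4 subunits of the CCT chaperonin. Proteasome and ubiquitin genes gave 15 of 37 (40.5%), with the lid subunit gene RPN5 at 0.152 and the ATPase gene CDC48 at 0.149 highest. Of glycolysis and fermentation genes 5 of 22 were selected (22.7%), with PFK2 at 0.131 and PFK1 at 0.128, the phosphofructokinase subunits. Of secretory pathway genes 9 of 43 were selected (20.9%), with the COPI subunit gene SEC26 at 0.102 and the translocation gene SEC63 at 0.101. Ergosterol synthesis gave 4 of 22 (18.2%), with the sterol demethylase gene ERG11 at 0.162 and ERG6 at 0.139. Amino acid biosynthesis gave 8 of 61 (13.1%), with ILV2 at 0.153 and ILV5 at 0.115, both of branched-chain synthesis.

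Several lists had no selected gene. They were mitochondrial ribosomal proteins (0 of 36), the tricarboxylic acid cycle (0 of 23), oxidative stress (0 of 21), phosphate (0 of 15), one-carbon metabolism (0 of 14), the Set2 pathway itself (0 of 12) and genes with internal cryptic promoters (0 of 3). Respiratory chain genes gave 1 of 13, ATP2. At the 7.61% share of all genes in the range, the shorter of these lists would hold few or none. Their counts therefore do not set them apart. The 32 lists together named 173 of the 300 genes, and 127 were in none.

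**Figure D1:**
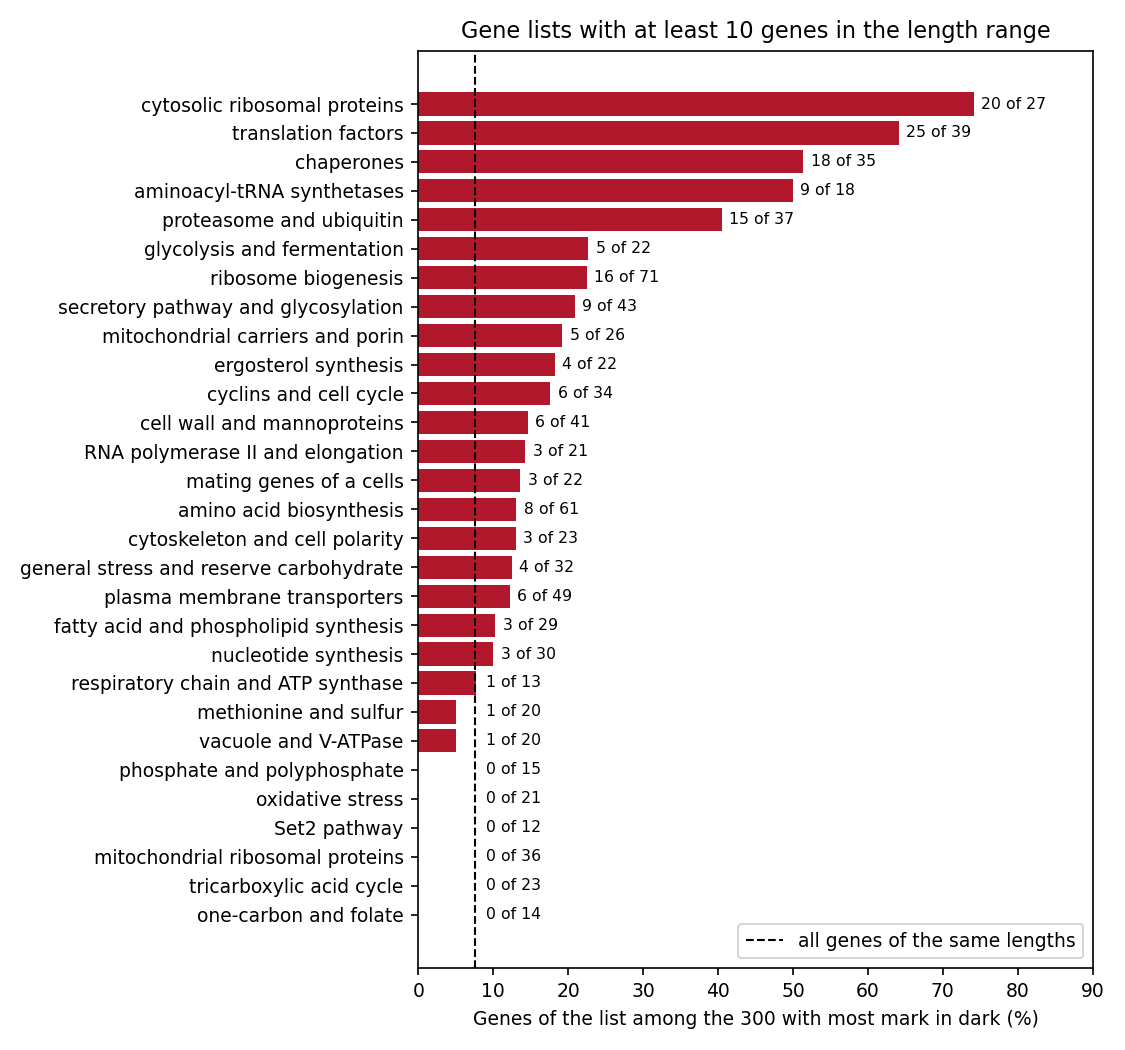
Share of the genes of each list, within the length range, that belong to the 300 with most H3K36me3 in the dark (x axis, percent; counts beside the bars). The dashed line marks the 7.61% that the 300 make up of all genes in the range. Ribosomal protein genes reach 74.1% and translation factor genes 64.1%, while several lists stand at 0.

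In structure, the selected genes were longer and more often spliced than the others. Their median length was 1622 bases, against 1335 for the other genes. An intron in the coding sequence was annotated in 23 of 300 (7.67%), against 78 of 3643 others (2.14%). Of the 23, 11 are ribosomal protein genes, and the remainder include YRA1, ACT1, GLC7, NOG2 and TEF4. Coding GC content had a median of 40.6%, against 39.6%. Only 2 of 300 lay within 20 kb of a chromosome end, against 125 of 3643. There were 14 pairs of neighbouring selected genes, with 26 genes in them. No count for other genes stands beside this, so it says nothing about clustering.

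Most of the 300 remained among the most marked genes in all courses. When the genes were ranked by mean signal at each later time of dark-to-light, 258 of the 300 were again among the highest 300 at 20 min, 248 at 40 min and 245 at 60 min. In light-to-dark 255 to 259 were among the highest 300, counting every time point. In the light-to-dark course labelled set2Δ rph1Δ there were 248 to 251. At any of these times 293 or more of the 300 were among the highest 600. NOP14, a ribosome biogenesis gene at the limit of the selection, was lowest in rank in dark-to-light (762 at 60 min). ERG3, the sterol desaturase gene with the largest spread between dark libraries, was lowest in both light-to-dark courses (rank 859 at 90 min in set2Δ cells, and 653 in those labelled set2Δ rph1Δ).

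In light the mark rose. The median signal of the selected genes in the 3 libraries was 0.0831, 0.105 and 0.108 at 0 min, against 0.0211, 0.0246 and 0.0220 for the other genes. At 20 min it was 0.165, 0.168 and 0.216, against 0.0412, 0.0405 and 0.0478. At 60 min it was 0.308, 0.352 and 0.420, against 0.0882, 0.102 and 0.119. Every library at 60 min lay above every library at 20 min in both sets. The ratio of the 2 medians was 4.36 ± 0.477 at 0 min (SD, n = 3), where the selection fixes it, and 4.23, 3.67 and 3.48 at 20, 40 and 60 min.

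**Figure D2:**
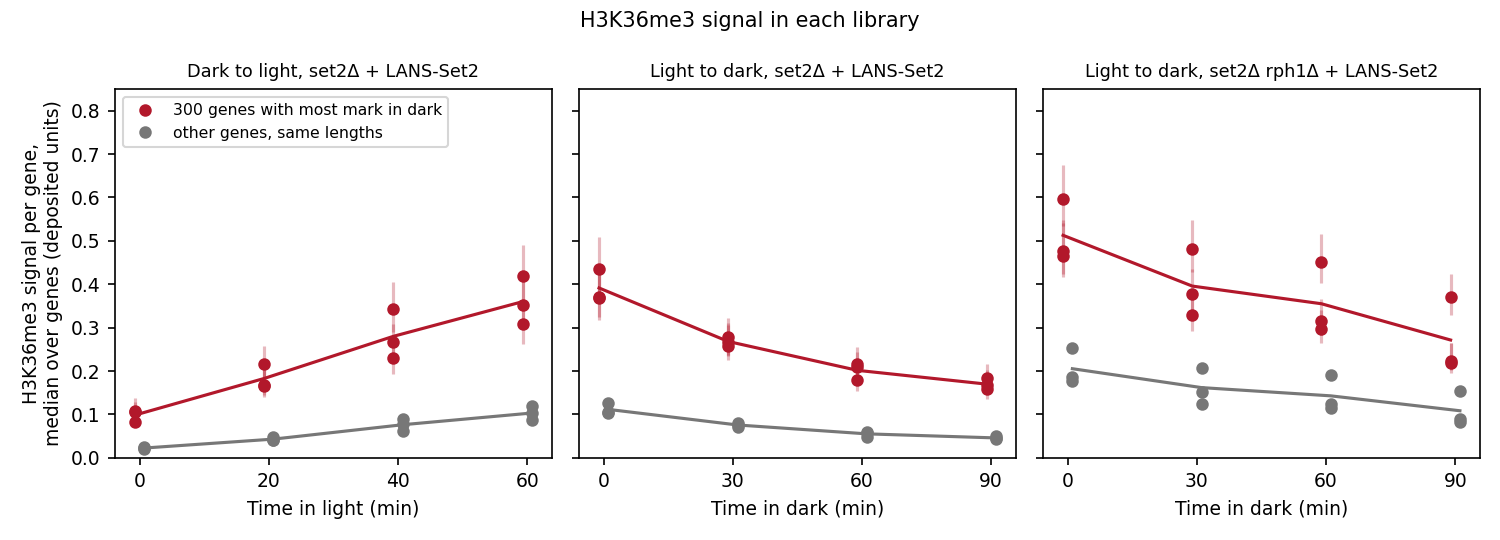
Median H3K36me3 signal per library (y axis, deposited signal, unit not stated) against minutes after the change of light (x axis), for the 300 selected genes and the 3643 others in each of the 3 courses. Points are libraries and bars span the middle quartiles over the selected genes; the selected genes lie above the others in every library, and replicate 3 of the set2Δ rph1Δ course is high throughout.

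The gain between 20 and 60 min does not use the dark libraries. On log2(signal + 0.1 × table median), its slope was above 0 in 300 of 300 selected genes by limma at an adjusted p under 0.05, where 99.8% of all genes tested were called. The median slope was 1.38 per hour for the selected genes and 1.64 for the other genes. In plain signal, 60 min stood at 1.93 times the 20 min level in the median selected gene, against 2.28 times in the median other gene. By replicate these ratios were 1.79, 2.05 and 1.95 for selected genes, against 2.07, 2.39 and 2.37 for the others. The selected genes were lower in each replicate. In absolute signal they added more, with a median of 0.174, against 0.0595.

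After the median of each library was subtracted, 105 selected genes (35%) had a smaller later gain than the median gene by limma, where 13.4% of all genes tested were called. None had a larger one, at an adjusted or an unadjusted p under 0.05, where 3.2% of all genes were called. That call depends on the settings. With any replicate left out, 0 to 2.67% of the selected genes were called smaller. With a pseudocount equal to the table median, the median relative slope turned to 0.168, against -0.304 with the smaller pseudocount, and 0% were called smaller and 16.7% larger, where 32.4% and 21% of all genes were called.

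The shallowest later gains were at the head of the list. URA1 had 0.334, 0.412 and 0.542 at 60 min, against 0.268, 0.266 and 0.347 at 20 min, a slope of 0.78 ± 0.31 log2 per hour (SE; limma adjusted p = 0.011). Only the lowest library at 60 min lay within the range at 20 min. PMA1 had 0.682, 0.697 and 0.884 at 60 min, with a slope of 0.86 ± 0.28 (limma adjusted p = 0.00225), and RPL5 had a slope of 1.04. The steepest were RTG3, an activator of the mitochondria-to-nucleus response, at 1.79, ASG1 at 1.75, and EPL1, a subunit of the NuA4 acetyltransferase, at 1.75. RTG3 had 0.261, 0.316 and 0.344 at 60 min, against 0.113, 0.140 and 0.138 at 20 min, with no overlap. Across the 300 genes, the later gain slope had a Spearman's rho of -0.607 with the dark signal and -0.394 with mean RNA level. Genes are not independent, and the pseudocount weighs more on low signals.

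When light was switched off the mark fell. The median signal of the selected genes was 0.368, 0.436 and 0.371 at 0 min, against 0.103, 0.127 and 0.105 for the others. It was 0.258, 0.278 and 0.268 at 30 min, and 0.180, 0.216 and 0.209 at 60 min. At 90 min it was 0.158, 0.184 and 0.168, against 0.0426, 0.0495 and 0.0456. No library at 90 min overlapped those at 0 min in either set. The signal after 90 min of dark remained above the median of 0.0831 to 0.108 that the selected genes had at 0 min of dark-to-light, but those values come from a separate table, and whether they share a scale is not stated.

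By limma the slope of loss was below 0 in 300 of 300 selected genes, where 99.6% of all genes tested were called. Its median was -0.76 log2 per hour, and -0.76 in the other genes too, with a range of -1.32 to -0.53 over the selected genes. In plain signal, 0.443 of the starting level remained at 90 min in the median selected gene, against 0.429 in the median other gene. By replicate these shares were 0.436, 0.427 and 0.465, against 0.425, 0.410 and 0.453. The selected genes were slightly higher in each replicate. The ratio of the 2 sets' medians was 3.51 ± 0.0624 at 0 min and 3.70 ± 0.01 at 90 min (SD, n = 3 each).

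Among the 5 genes with the fastest loss, ILV5, acetohydroxyacid reductoisomerase, had 0.137, 0.176 and 0.149 at 90 min, against 0.593, 0.644 and 0.558 at 0 min. Its slope was -1.32 ± 0.09 (limma adjusted p = 5.66e-11). PSA1, which makes the mannose donor GDP-mannose, had 0.0999, 0.111 and 0.0975 at 90 min, against 0.378, 0.445 and 0.351 at 0 min, a slope of -1.25. In both genes all libraries at 90 min lay far below those at 0 min. The glycolytic aldolase gene FBA1 had a slope of -1.07, the Hsp70 gene SSA2 -1.06 and TLD1 -1.04. SSA2 has a near-identical copy, SSA1.

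Among the 5 genes with the slowest loss, RPS0B had 0.363, 0.459 and 0.402 at 90 min, against 0.699, 0.75 and 0.657 at 0 min, a slope of -0.53 ± 0.08. CSS1 had 0.242, 0.285 and 0.271, against 0.463, 0.510 and 0.424, a slope of -0.53, and RPS6A had a slope of -0.55. In each the groups stayed apart, although more than in ILV5 remained. RPS6A has a near-identical copy, RPS6B. CBF5 had 0.223, 0.260 and 0.248 at 90 min, against 0.396, 0.484 and 0.421 at 0 min, a slope of -0.57 ± 0.08. SRO9, an RNA-binding protein gene, had a slope of -0.59.

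Relative to the median gene, 47 selected genes (15.7%) lost the mark more slowly by limma, where 14% of all genes tested were called, a share near that of all genes. Faster loss was called in 34 (11.3%), where 5.65% of all genes were called. The list medians of the loss slope were -0.75 for both ribosomal protein and ribosome biogenesis genes, -0.78 for chaperones, -0.92 for plasma membrane transporters and -0.90 for cell wall genes. By list, 6 of 20 selected ribosomal protein genes were slower and 2 faster, and 7 of 25 translation factor genes were slower and 1 faster. Of 6 plasma membrane transporter genes 3 were faster, PMA1 and the amino acid permease gene BAP2 among them, and so were 4 of 6 cell wall genes. Neither list had a slower gene. Of 18 chaperone genes 4 were faster and 2 slower. These counts change with the setting. With a pseudocount equal to the table median, 95% of the selected genes were called faster and 0% slower, where 34.5% and 37.8% of all genes were called. With a pseudocount of 0.01 of the median, 34.3% were called slower and 5% faster, where 10.8% and 4.26% of all genes were called. With 1 replicate left out, 3% to 13% were called slower and 4% to 5.67% faster.

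In the course labelled set2Δ rph1Δ the mark fell too. The signal over RPH1 itself does not check that label. It was 0.132, 0.130 and 0.378 at 0 min, 0.0887, 0.152 and 0.15 at 30 min, 0.00272, 0.00313 and 0.302 at 60 min and 0.0635, 0.0338 and 0.0720 at 90 min, against 0.106, 0.108 and 0.0934 at 0 min of the set2Δ course. These values are neither near 0 throughout nor alike between replicates, and no RNA was measured in this strain. The selected genes had medians of 0.464, 0.478 and 0.597 at 0 min, against 0.178, 0.186 and 0.253 for the others. At 90 min they had 0.220, 0.224 and 0.371, against 0.0822, 0.0897 and 0.154. Replicate 3 was the highest library at every time. All 300 slopes were called below 0 by limma, where 97.4% of all genes tested were called, but without replicate 2 only 0.333% of the selected genes were. The median slope was -0.57, and -0.55 in the other genes. In plain signal 0.537 of the starting level remained at 90 min, against 0.532 in the other genes. By replicate these shares were 0.479, 0.479 and 0.626, against 0.471, 0.491 and 0.603. The selected genes were lower in replicate 2 and higher in replicates 1 and 3. The ratio of the 2 sets' medians was 2.52 at 0 min and 2.53 at 90 min, lower than in the set2Δ course, which is a separate table.

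The order of genes within the set was partly shared. ILV5 at -1.07, PSA1 at -0.92 and FBA1 at -0.87 were again steepest. The shallowest were EFT2 at -0.40, the protein phosphatase gene GLC7 at -0.45 and CBF5 at -0.48. EFT2 is not interpretable: its copy EFT1 is near-identical, and replicate 3 had 0.651 at 90 min, against 0.183 and 0.165 in the other replicates. Spearman's rho between the loss slopes of the 2 light-to-dark courses was 0.394 across the 300 genes. Relative to the median gene, 9 selected genes (3%) lost the mark faster by limma in the set2Δ rph1Δ course, where 1.2% of all genes were called. None was called slower, with 1 at an unadjusted p under 0.05, where 0.187% of all genes were called.

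The difference of the slopes, set2Δ rph1Δ minus set2Δ, was positive in 100% of the selected genes, 99.3% of the other genes and 97.7% of all genes tested. Its median was 0.20 log2 per hour in the selected genes and 0.21 in the other genes. By the limma interaction 0 selected genes were called higher and 0 lower, where 0% of all genes were called in either direction. At an unadjusted p under 0.05 there were 9 higher and 0 lower, and the smallest adjusted p by limma was 0.547. With the replicate number as a block, 46.3% of the selected genes were called higher and 0% lower, where 43.6% and 0.0212% of all genes were called, a share near the background.

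**Figure D3:**
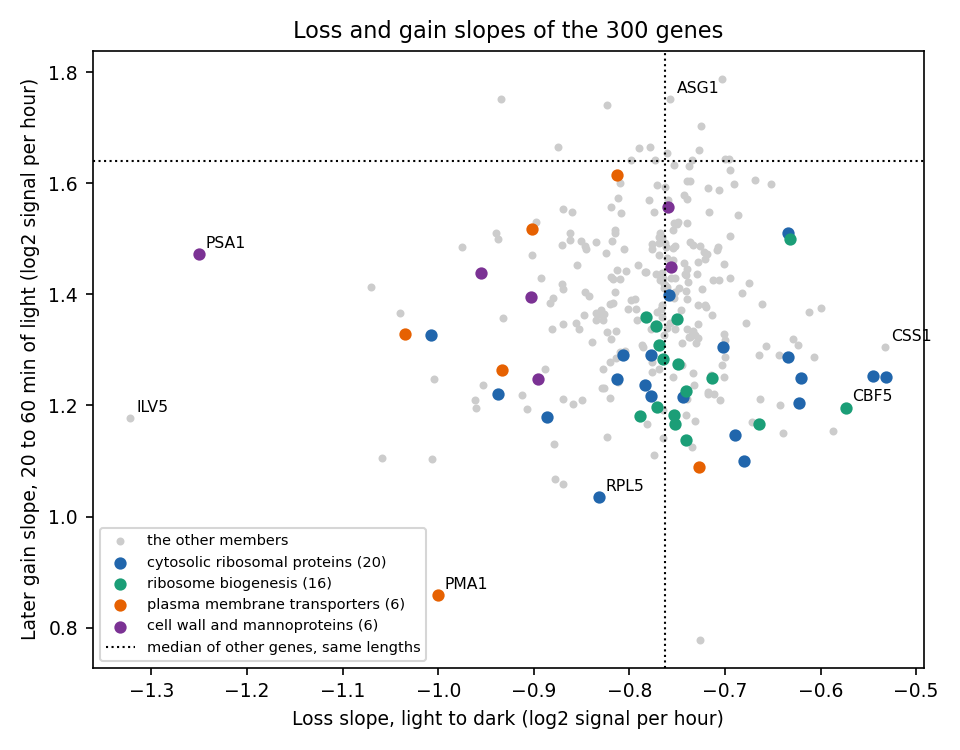
Slope of the later gain in dark-to-light from 20 to 60 min (y axis, log2 per hour) against slope of loss in light-to-dark (x axis, log2 per hour), each point a selected gene, coloured by list; dotted lines are medians of the other genes. The 300 points show no common trend (Spearman's rho 0.00618, across genes that are not independent), with ILV5 at the far left and PMA1 near the foot.

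The selected genes were also highly expressed. Their median RNA level was 94.0 to 104 TPM (a transcript level scaled for gene length and library size) over the 8 time points of both courses, against 21.0 to 23.1 TPM for the other genes. In cells without LANS-Set2 it was 77.6 TPM in rph1Δ and 76.4 TPM in WT, against 15.1 and 14.9 TPM. In bulk RNA, fewer cells with a transcript and less of it per cell cannot be told apart. Of the 300, 129 were in the highest 10% of the genes in the length range, and 12 were below the median. Of the 100 genes with most RNA, 52 were selected, and of the 20 with most, 12 were. Spearman's rho between dark signal and mean TPM was 0.568 across 3941 genes, and 0.489 within the selected set.

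The relation was loose for single genes. Among the highest RNA levels in the set were FBA1 at 7470 TPM and RPL3 at 2570 TPM, with dark signals of 0.0853 and 0.160. CSS1 averaged 11.4 TPM over both courses, the lowest of the set, with a dark signal of 0.105, above that of FBA1. Its level differed between the courses, at 19.3, 23.3 and 15.7 TPM at 0 min of dark-to-light and 6.06, 4.69 and 4.37 TPM at 0 min of light-to-dark. In the dark-to-light course it was not the lowest, since MOT3 had 16.8, 17.2 and 15.5 TPM at 0 min. The repressor gene MOT3 averaged 18.4 TPM and the RNA-binding protein gene VTS1 18.9 TPM. TDH3, a glycolytic gene with the most RNA of all genes in the range, was not among the 300.

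**Figure D4:**
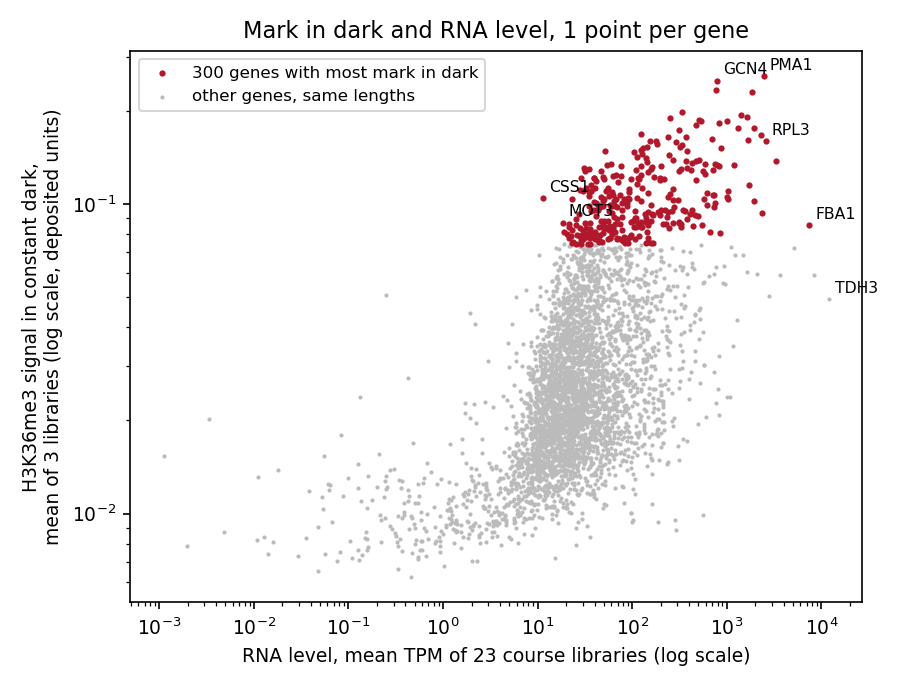
Mean H3K36me3 signal in the 3 dark libraries (y axis, log scale, deposited signal) against mean TPM over the courses (x axis, log scale), each point a gene of 600 to 3499 bases. The 300 selected genes form the top of the cloud by construction and lie mostly to the right, at a median of 94.0 to 104 TPM at each time, against 21.0 to 23.1 TPM in the others.

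RNA of the median selected gene moved little in light, and the number of selected genes called lower depended on the test. After 20 min none was called by limma on log2(TPM + 1), with 9 higher and 12 lower at an unadjusted p under 0.05, where 0.0169% of all genes were called higher and 0% lower. After 40 min 4 were called higher and 3 lower, where 3.54% of all genes were higher and 0.254% lower. With any 1 replicate left out none of these was called, and with only the 0 and 40 min groups in the fit 0% were higher and 0.333% lower. After 60 min none was called, with 5 higher and 43 lower at an unadjusted p under 0.05, where 0.0508% of all genes were higher and 0% lower. On this scale the median of all genes was 0.10 at 40 min, while that of the selected genes was -0.01.

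Reads could be recovered from the TPM values, and edgeR on those reads, which rescales the libraries by TMM, gave another split. That test was chosen after the data were seen. At 40 min it called 5 selected genes higher (1.67%) and 47 lower (15.7%), where 3.44% of all genes were higher and 4.77% lower. At 60 min it called 0 higher, with 4 at an unadjusted p under 0.05, and 18 lower (6%), where 0.665% and 1.7% of all genes were called. At 20 min it called none, with 6 higher and 36 lower at an unadjusted p under 0.05, where 0% of all genes were called either way. By edgeR the median change of all genes was 0.01 at both 40 and 60 min, and that of the selected genes was -0.10 at 40 min and -0.13 at 60 min.

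By list, the falls by edgeR at 40 min included 11 of 16 selected ribosome biogenesis genes (median change -0.28 log2), 12 of 20 ribosomal protein genes (-0.30), 10 of 25 translation factor genes (-0.22) and 2 of 9 aminoacyl-tRNA synthetase genes (-0.17). They also included 2 of 3 nucleotide synthesis genes, URA1 and IMD4, the mating receptor gene STE2 and the transaminase gene BAT1. At 60 min they included 10 of 20 ribosomal protein genes 2 of 25 translation factor genes and 0 of 16 ribosome biogenesis genes, and again URA1, STE2 and BAT1. RPS0B, a small-subunit protein gene, had 1410, 1500 and 1370 TPM at 40 min and 1130 and 1420 TPM at 60 min, against 1740, 1660 and 1590 TPM at 0 min. Both later times lay below all libraries at 0 min, with changes of -0.32 and -0.46 (edgeR adjusted p = 0.04 and 0.0332). The GTPase gene NOG1 changed by -0.40 at 40 min (edgeR adjusted p = 0.0156). By limma only 2 ribosome biogenesis genes of the set fell at 40 min. DBP3, an RNA helicase gene, had 47.9, 51.3 and 50.1 TPM, against 60.0, 61.7 and 56.6 TPM (limma adjusted p = 0.0474), and NOC2 had 54.8, 55.7 and 55.1 TPM, against 64.8, 68.1 and 63.0 TPM (limma adjusted p = 0.0368).

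URA1, of pyrimidine synthesis, had the largest fall of the set at 40 min under either test. It had 426, 409 and 392 TPM at 40 min, against 573, 535 and 546 TPM at 0 min, without overlap. The change was -0.43 ± 0.09 by limma (adjusted p = 0.0314) and -0.52 by edgeR (adjusted p = 0.00765).

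The rises at 40 min were in chaperone and trehalose genes. HSP82, the inducible Hsp90, had 319, 299 and 342 TPM, against 223, 169 and 217 TPM at 0 min, a change of 0.66 ± 0.11 by limma (adjusted p = 0.019). The mitochondrial disaggregase gene HSP78 had 94.6, 108 and 110 TPM, against 58.7, 65.3 and 82.9 TPM (0.60, limma adjusted p = 0.0445). NTH1, a trehalase gene, had 113, 103 and 116 TPM, against 85.8, 79.5 and 93.5 TPM (0.36, limma adjusted p = 0.0467). The libraries did not overlap in any of these genes. STI1, an Hsp90 co-chaperone gene, was the fourth, at 0.33. At 60 min, with 2 libraries, none of them was called by either test.

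In the light-to-dark course no selected gene was called after 30 min by either test, where both called 0% of all genes. At an unadjusted p under 0.05 limma had 2 higher and 5 lower, and edgeR 8 higher and 7 lower. After 60 min limma called 0 higher, with 13 at an unadjusted p under 0.05, and 1 lower, where 0.272% of all genes were higher and 0.034% lower. EdgeR called 1 higher, ERG3, and 1 lower, the multicopper oxidase gene FET3, where 0.688% of all genes were higher and 0.0344% lower. After 90 min limma called 4 higher and 2 lower, where 1.65% and 0.306% of all genes were called. EdgeR called 8 higher (2.67%) and 2 lower (0.667%), where 2.8% and 0.55% of all genes were called, shares near the background.

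The rises at 90 min of dark were led by ergosterol synthesis. ERG11 had 800, 899 and 984 TPM at 90 min, against 569, 566 and 527 TPM at 0 min, a change of 0.69 ± 0.12 (limma adjusted p = 0.0175). ERG3 had 782, 934 and 925 TPM, against 473, 563 and 590 TPM (0.70, limma adjusted p = 0.018), and ERG5, the desaturase that follows it, had 223, 254 and 271 TPM, against 168, 160 and 151 TPM (0.64 ± 0.09, limma adjusted p = 0.007). In all 3 genes each library at 90 min lay above each at 0 min. ERG6, the sterol methyltransferase gene, had 572, 679 and 776 TPM, against 294, 413 and 445 TPM. Its change of 0.82 ± 0.19 missed the threshold by limma (adjusted p = 0.0576) and passed it by edgeR (0.75, adjusted p = 0.00538). All 4 selected ergosterol genes were thus called by edgeR and 3 by limma. ATP2, the catalytic subunit of the ATP synthase, was the fourth rise by limma, at 0.47.

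Both falls by limma were in chaperones. SSA2 had 710, 631 and 644 TPM at 90 min, against 861, 852 and 943 TPM at 0 min (-0.42, limma adjusted p = 0.00946). At 60 min it had 683, 647 and 682 TPM, a change of -0.40 (limma adjusted p = 0.0413, edgeR adjusted p = 0.129). HSC82 had 996, 851 and 881 TPM at 90 min, against 1200, 1160 and 1170 TPM at 0 min (-0.38, limma adjusted p = 0.0376, edgeR adjusted p = 0.0984). The libraries did not overlap in either gene. EdgeR called SSA2 and FET3 lower at 90 min, FET3 by -0.58 (edgeR adjusted p = 0.00871). Leaving out 1 replicate moved the limma counts at 90 min to 0% to 5.33% higher and 0% to 1.67% lower.

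**Figure D5:**
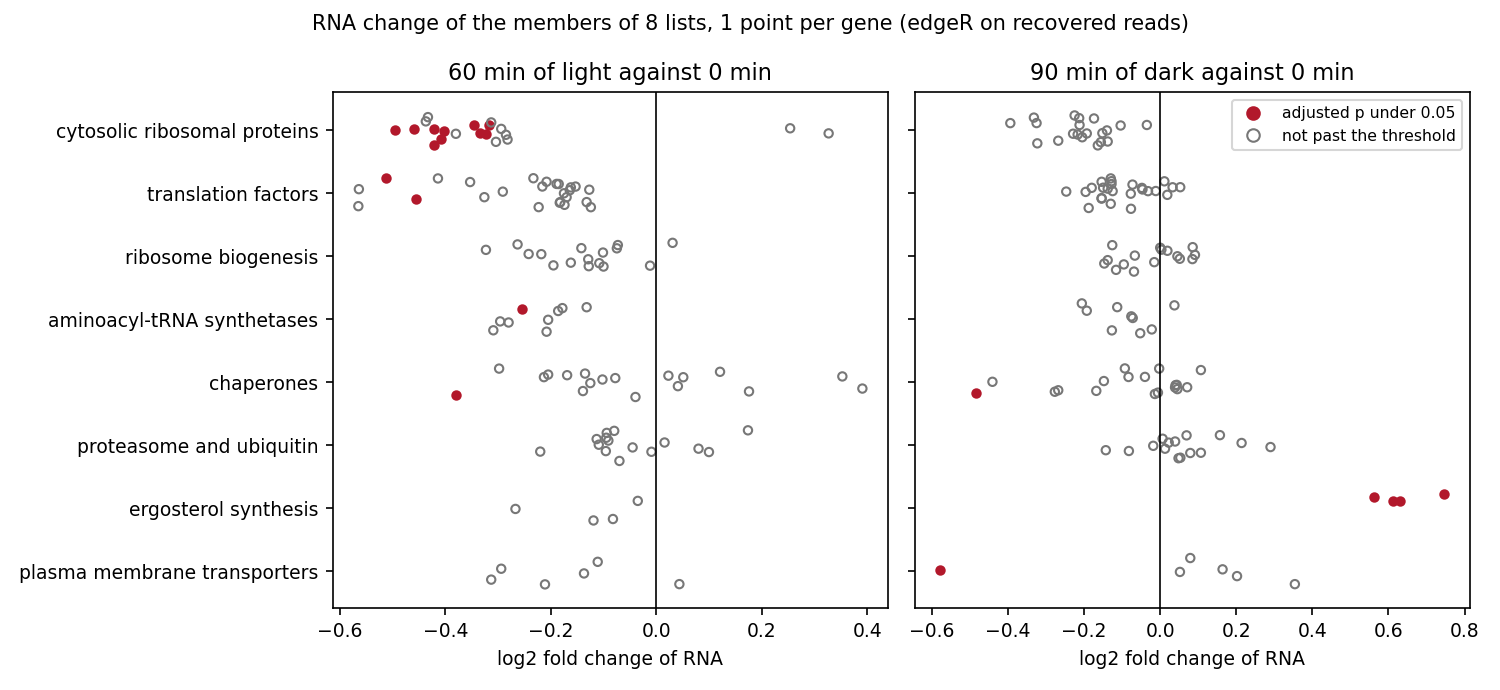
Change of RNA (log2, edgeR on recovered reads) at 60 min of light and 90 min of dark, each against 0 min of its own course, for the selected genes of 8 lists; each point is a gene. Filled points passed an adjusted p of 0.05. All but 2 of the 20 ribosomal protein genes lie below 0 at 60 min of light, and the 4 ergosterol genes lie above 0 at 90 min of dark.

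The authors' deposited tables of changed genes list 13, 83 and 83 of the selected genes at 20, 40 and 60 min of light, of 88, 687 and 445 genes. For the dark they list 1, 9 and 16 at 30, 60 and 90 min, of 14, 117 and 313. Selected genes thus made up 14.8%, 12.1% and 18.7% of those listed in light, and 7.14%, 7.69% and 5.11% in dark. They are 7.61% of the genes in the length range, to which the authors' lists were not limited. In every gene of these tables the authors' deposited fold change has the opposite sign to the change in deposited TPM from 0 min to the later time, so its direction is taken as unknown here. By TPM, of the 83 selected genes in the authors' deposited table at 60 min of light 82 were lower and 1 higher.

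Some selected genes differed in RNA between rph1Δ and WT cells. RPH1 had 0, 0.0170 and 0.0248 TPM in rph1Δ cells, against 17.4, 15.9 and 15.6 TPM in WT cells, as labelled. By edgeR 18 selected genes were higher in rph1Δ cells (6%) and 14 lower (4.67%), where 9.46% of all genes were higher and 2.83% lower. The polyubiquitin gene UBI4 had 59.2, 62.4 and 59.0 TPM in rph1Δ cells, against 47.4, 45.0 and 45.3 TPM in WT cells (0.38 ± 0.04, edgeR adjusted p = 1.01e-05). HSP82 had 166, 170 and 159 TPM, against 130, 126 and 125 TPM (0.36, edgeR adjusted p = 2.96e-06), and HSP78 had 11.7, 11.8 and 11 TPM, against 9.33, 8.75 and 8.86 TPM (0.34, edgeR adjusted p = 0.00026). None of these overlapped between genotypes. The largest falls were smaller. LEU1, of leucine synthesis, had 77.4, 81.0 and 75.5 TPM in rph1Δ cells, against 89.4, 91.3 and 86.5 TPM (-0.20, edgeR adjusted p = 0.00123). The acidic amino acid permease gene DIP5 had 26.7, 27.7 and 27.9 TPM, against 31.9, 30.8 and 30.4 TPM (-0.19, edgeR adjusted p = 0.00835). The cell wall gene HPF1 had 40.2, 38.0 and 36.0 TPM, against 46.6, 45.7 and 38.8 TPM, with 1 library of each genotype overlapping (-0.21 ± 0.05, edgeR adjusted p = 0.0164).

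Across the RNA libraries, depth ran from 9295949 to 29032862 reads, as deposited or recovered. SET2 averaged 117 to 135 TPM in the LANS-Set2 cells, which carry the fusion, against 17.1 TPM in WT cells. It therefore does not check the deletion. In light-to-dark, replicate 1 was lowest in SET2 at every time, at 78.8, 79.8, 89.2 and 101 TPM. The other libraries of that course had 119 to 172 TPM. The summed level of 6 markers of a cells was 2330 to 9360 TPM and that of 4 markers of alpha cells 12.3 to 22.6 TPM, as BY4741 is an a strain. The depth behind the H3K36me3 signals is unknown, so no counting interval can be given for them.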

How the data were processed

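H3K36me3 ChIP-seq and RNA-seq were used as processed files: 36 H3K36me3 and 29 RNA libraries of the 134 samples. Other samples, among them H3K36me3 libraries labelled set2Δ without LANS-Set2, are not used here. Tools named in the submitters' processing notes, without their role, include Salmon 0.8.1, DESeq2 1.14.1, STAR 2.5.2b, deepTools 2.5.4 and cutadapt 1.12; they also name the builds sacCer3 and ASM294v2 (the fission yeast spike-in). The authors deposited 1 H3K36me3 signal per gene and library. How that signal was computed and whether the spike-in scaled it is not given in the sources used here. RNA courses were deposited as TPM with gene length in bases. The rph1Δ and WT files were deposited with an estimated count, TPM and effective length. For changed genes, the authors' tables hold a log2 fold change with an adjusted p-value. The authors' model tables give estimates named ZOIBeta and ZINeg, another quantity with no stated time unit.

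The 300 genes and the 32 lists were chosen with earlier results of these data known. Signals were fitted as log2(signal + 0.1 × table median) over genes not below the percentile 10 of mean signal, with limma 3.58.1, as slopes per hour; relative slopes follow subtraction of each library's median over genes. TPM were fitted with limma as log2(TPM + 1) for genes with a mean of at least 1 TPM, with time as a factor; folds on that scale understate changes of low genes. Estimated counts were rounded and tested with edgeR 4.0.16 (filterByExpr, TMM, quasi-likelihood), with DESeq2 1.42.0 as an alternative. Reads were also computed back from TPM and effective length, taken from the rph1Δ and WT files (100% of values whole within 0.05) and tested with edgeR, an alternative chosen after the data were seen. All p-values were adjusted by Benjamini-Hochberg over every gene tested (threshold 0.05). Fits were tested on simulated data. No pair of libraries was identical.

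Named genes were the 15 highest in the dark, the 5 on each side of the limit, and SET2 and RPH1. The 2 highest of each list with at least 3 selected genes were named too. So were the extremes of TPM and of each slope (5 for loss, 3 for the others). The rule also took the 3 largest called rises and falls of each RNA comparison. Others named in sentences (NOG2, TEF4, ATP2, STI1, NOG1, FET3, TDH3, YDJ1, BAP2 and BAT1) were added after their values were seen. SSA1, EFT1 and RPS6B are named only as copies. Some genes that this rule names are not reported here. Copies were found with BLAST 2.17.0 at 95% identity or more. Other tools were R 4.3.3, Python 3.11.15, pandas 2.3.3, scipy 1.17.1 and matplotlib 3.10.9. Alternatives tried were pseudocounts, filters, sets of 150 or 600 genes, the 2 groups alone, the replicate block, DESeq2 and leaving out each replicate.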

Additional observations from a re-analysis of the deposited data

How the results depend on the processing

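Loss in light-to-dark was called in 100% of the genes under each alternative except the highest 600 genes (99.8%), and the later gain in 100% except without replicate 2 (99%). The other counts moved. Relative to the median gene, slower loss was called in 15.7% of selected genes, and in 34.3% with a pseudocount of 0.01 of the table median, 0% with the full median, 25.3% of the highest 150 genes, 9.83% of the highest 600, and 3% to 13% without 1 replicate. Faster loss was called in 11.3%, and in 5%, 95% and 4% to 5.67% under the pseudocounts and omissions in that order. In the course labelled set2Δ rph1Δ, called loss ran from 0.333% to 100% without 1 replicate; faster relative loss was called in 3%, and in 1% and 90.3% with the smaller and larger pseudocount, 6% with the replicate block and 0% to 1% without 1 replicate. Smaller relative gain was called in 35%, and in 68.7% and 0% with the smaller and larger pseudocount, 71% with the block and 0% to 2.67% without 1 replicate; larger gain reached 16.7% with the larger pseudocount. The slope difference was called in 46.3% with the block. For RNA at 40 min of light, calls higher and lower were 1.33% and 1%: 1.67% lower with no filter, 4.33% and 4.33% with the block, 0% and 0.333% with only the 2 groups, 15.7% lower on recovered reads, and 0% without any 1 replicate. At 60 min of light the block gave 1% and 2.33%, and recovered reads 6% lower. At 60 min of dark the block gave 2% and 1%, the 2 groups alone 0% lower, recovered reads 0.333% higher, and omissions 0% to 1% higher and 0% to 0.333% lower. At 90 min of dark the block gave 9% and 2.67%, the 2 groups alone 0% and 0%, recovered reads 2.67% higher, and omissions 0% to 5.33% higher and 0% to 1.67% lower. For rph1Δ against WT, lower calls ran from 1.67% to 6% without 1 library. The cause was not tested.

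The replicate numbers were not shown to pair the libraries: same-numbered libraries had deviations correlated from -0.265 to 0.508 in H3K36me3 and from -0.0744 to 0.503 in RNA, so the blocked values above rest on a shared number only. Each of the 12 dark-to-light H3K36me3 libraries correlated best with its own number. So did 8 of 12 in the set2Δ light-to-dark course and 10 of 12 in the set2Δ rph1Δ course. For RNA it was 8 of 11 in dark-to-light, 10 of 12 in light-to-dark and 2 of 6 in rph1Δ and WT. These are hints from the data and not from the design. Tests without the block leave any such pairing out.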

Other observations

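Other groups of selected genes lie outside protein synthesis. Cyclin and cell cycle genes gave 6 of 34, with the mitotic cyclin gene CLB2 at a mean dark signal of 0.110 ± 0.0130 and the G1 cyclin gene CLN3 at 0.0989 ± 0.00983 (SD, n = 3 each). Their RNA was low for the set, at 35.1 TPM for CLB2 and 34.6 TPM for CLN3 over the courses. Plasma membrane transporter genes gave 6 of 49, with PMA1 and the inositol transporter gene ITR1 (0.156 ± 0.0245) highest, and a median loss slope of -0.92 log2 per hour, against -0.76 over all 300 genes.

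In the authors' deposited model tables, ZOIBeta estimates of change were positive for 293 of the 300 genes in dark-to-light, against 3552 of 3640 other genes. In light-to-dark they were negative for 261, against 3072 of 3640, and in the course labelled set2Δ rph1Δ for 242, against 3082 of 3640; the remainder were 0. The authors' deposited ZINeg estimates were other than 0 for 276, 279 and 16 of the 300 genes in those 3 courses, against 3316, 2564 and 121 of 3640 other genes.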
